A study of Mus musculus with 39 samples.

Results

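The genes described here encode the machinery that copies DNA and supplies its building blocks, 41 genes of the 22609 counted in each library. They were taken by symbol from a fixed list of 12 genes of the replicative helicase and of origin licensing and firing, 6 of the sliding clamp and its loader, 7 of primase and the polymerases, 4 of single strand binding and fragment joining, 5 of nucleotide supply, 4 of chromatin copying and 3 of the control of entry into S phase. All 41 were found, all had reads in every library and all passed the filter on low counts in both tissues. RNA had been sequenced from hind paw punch biopsies and from L3 to L5 dorsal root ganglia (DRG, the clusters of sensory nerve cell bodies beside the spinal cord) of C57 mice aged 8 to 12 weeks, with the controls labelled WT. Paclitaxel, a cancer drug that binds microtubules and stops dividing cells in mitosis, was given by 2 intraperitoneal injections of 3 mg/kg. Paw skin of females was collected on days 2, 6, 16 and 26, counted from the second injection, and that of males on days 2, 6 and 15. Titles of the male libraries carry the letters LC, which those of females do not and which no label explains. DRG were taken from both sexes on days 2 and 6. The control in both tissues was vehicle females, sampled 1 day after vehicle, while vehicle males were not analysed here. Each of the 13 groups had 3 libraries. Whether the 3 libraries of a group stem from different mice is not stated, and a p-value here covers only the variation among such libraries, part of which may be technical.

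In a dividing cell, the Mcm2 to Mcm7 ring is loaded onto origins by Cdc6 and Cdt1 and becomes an active helicase when Cdc45 and the GINS complex join it. Polymerases then copy both strands on a clamp loaded by replication factor C, while ribonucleotide reductase, thymidylate synthase and thymidine kinase supply the nucleotides. Many of these genes are transcribed together as a cell enters S phase, under factors of the E2F family. Skin holds many dividing cells in the basal epidermis and in growing hair follicles, whereas sensory neurons do not divide.

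Reads assigned to genes numbered 16781618 to 24598926 per paw library, with 0.0812% to 0.123% of them on the 41 genes. For DRG the range was 19049166 to 26136854, with 0.0469% to 0.0574% on the 41 genes. Summed over the 9 markers found of differentiated keratinocytes, paw libraries held 87200 to 172000 CPM (read counts scaled to a common library size with TMM factors), and the 10 sensory neuron markers summed to 10300 to 12900 CPM in DRG. The libraries fell into 2 sets by the share of reads that touched more than 1 gene, which was 0.21% to 0.30% for 18 libraries, all from females given paclitaxel, and 0.54% to 0.75% for the remaining 21. Treatment and library set cannot be told apart where paclitaxel females are set against vehicle. Comparisons among female days, among male days, and of males with vehicle stay inside a set. Skeletal muscle in the biopsies also varied. Its 13 markers summed to 64.8 to 14500 CPM in vehicle, 7030 to 41000 on female day 2 and 152 to 9080 on female day 6, and none of them was at 0 in any paw library.

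In female paw skin the replication genes stood highest on day 6. Their mean level over the 41 genes was 4.65, 4.47 and 4.54 log2 CPM in the 3 libraries of that day, above every other paw library, which ran from 3.84 to 4.41. Group means were 4.11 ± 0.29 (SD, n = 3) in vehicle, 4.10 ± 0.21 on day 2, 4.55 ± 0.09 on day 6, 4.21 ± 0.14 on day 16 and 4.05 ± 0.10 on day 26. In males they were 4.11 ± 0.20 on day 2, 4.10 ± 0.07 on day 6 and 4.03 ± 0.14 on day 15. Expression in a biopsy is a mean over its cells, so more dividing cells and more RNA per dividing cell cannot be told apart.

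**Figure D1:**
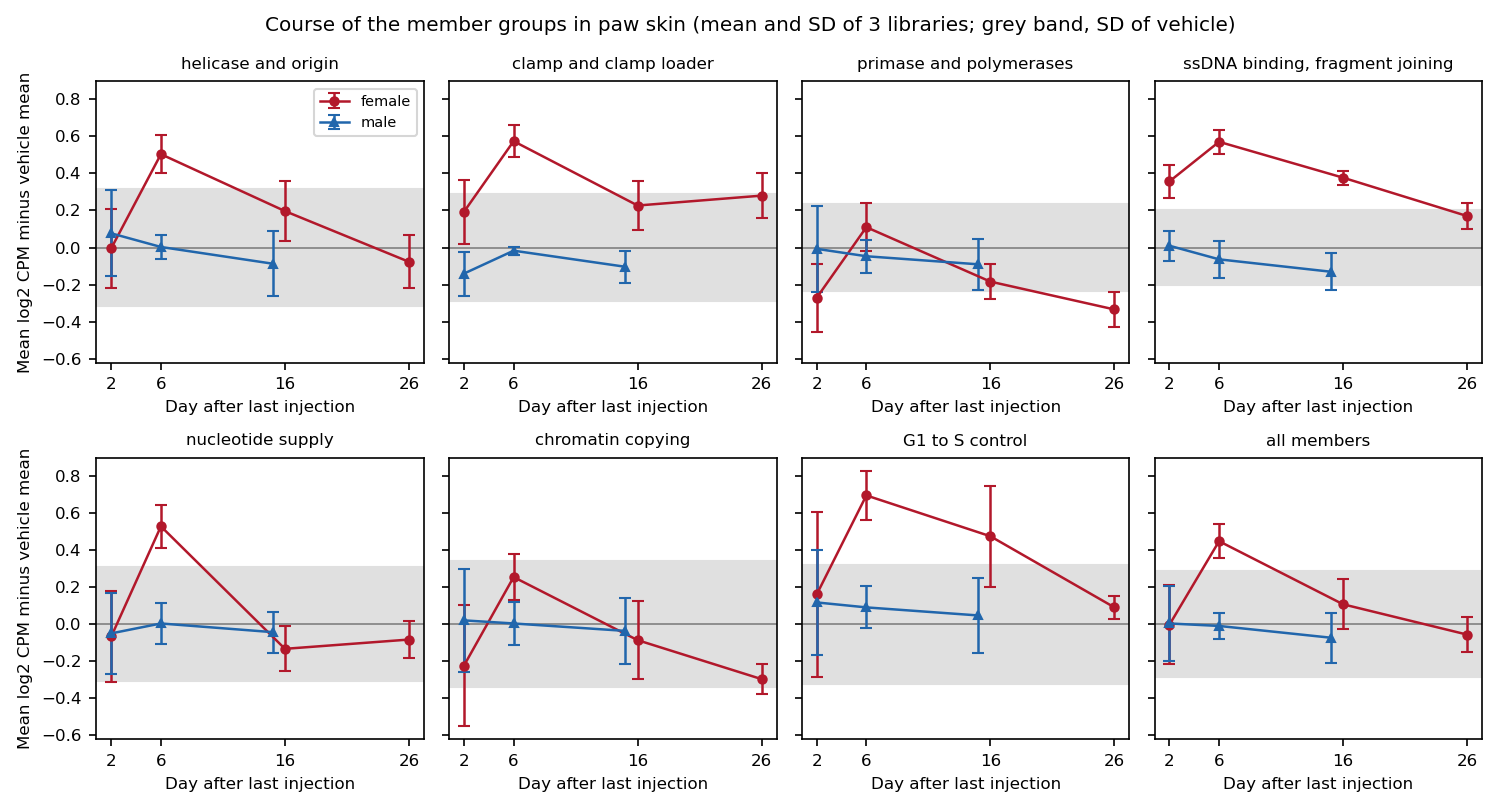
Mean log2 CPM of each group of genes in paw skin minus the mean of the vehicle libraries, against the day after the last injection, in females (red circles) and males (blue triangles), with SD bars over 3 libraries and the vehicle SD as a grey band. Over all members the female course peaked on day 6 at 4.55 log2 CPM, while the male means lay between 4.03 and 4.11.

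Against vehicle, 17 genes were higher and 1 lower on female day 6, where 16% of all 15346 genes tested were higher and 13.5% lower (edgeR, adjusted p under 0.05). The median log2 change was 0.45, against -0.02 over all genes, and 35 of 41 changes were positive. Against day 2, which lies in the same library set, the median was again 0.45, against 0.02 over all genes. In that comparison 40 of 41 changes were positive and 24 genes had all 3 day 6 libraries above all 3 of day 2, as did 12.7% of all genes. By test 2 of the 41 rose from day 2 to day 6 and 0 fell, against 0.411% and 0.463% of all genes, while 26 were higher at an unadjusted p under 0.05 (13.3% of all genes) and DESeq2 called 12 higher (4.97% of the genes it gave an adjusted p). From day 6 to day 16 the median was -0.35, against 0.01 over all genes. By test 5 genes fell and 0 rose (4.8% and 4.09% of all genes), and 22 had all 3 day 16 libraries below all 3 of day 6, as did 15.4% of all genes. Set against all 9 libraries of the other female days, the 3 day 6 libraries were the highest for 16 of 41 genes (3.94% of all genes). Set against all 21 other paw libraries, they were the highest for 9 (1.91%), which were Mcm3, Mcm7, Gins2, Rfc2, Rfc4, Pold1, Lig1, Tk1 and Tyms.

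Markers of other tissue moved with these differences. Of the 13 skeletal muscle markers 0 were called on day 6 against vehicle or day 2, but their medians were -1.12 and -2.80 log2. The mean log2 CPM of its markers was 3.19, 8.93 and 3.25 in the day 6 libraries and 10.03, 8.41 and 11.28 in those of day 2. Vehicle libraries had 9.78, 1.65 and 8.57. Day 6 replicate 2, with muscle like that of day 2 replicate 2, had a mean of 4.47 log2 CPM over the 41 genes against 4.34, and vehicle replicate 2, with the least muscle of all 24, had 4.41. These are single libraries, and vehicle lies in the other library set. With the muscle level in the model the median from day 2 to day 6 was 0.18 and 0 genes were called, as were 0 of all 15346 tested. At an unadjusted p under 0.05, 7 of the 41 were higher (3.38% of all genes). Against vehicle the median was then 0.37, with 21 genes higher and 1 lower (17.5% and 16.2% of all genes). From day 6 to day 16 it was -0.17, with 4 genes lower (2.52%). The 9 differentiated keratinocyte markers summed to 141000 to 172000 CPM on day 6, 87200 to 142000 on day 2 and 88700 to 108000 in vehicle, with none at 0 and 2 of them higher on day 6 than in vehicle, and their part was not tested. The 8 basal keratinocyte markers had a median of 0 against vehicle. With the basal keratinocyte level in the model 24 genes were higher and 1 lower against vehicle (18.3% and 16.4% of all genes), and 6 were higher than on day 2 (1.25%). The 6 fibroblast markers summed to 3650 to 5360 CPM on day 2 and 1740 to 3460 on day 6, without overlap, and to 2130 to 3150 in vehicle. The 8 macrophage markers summed to 258 to 528 CPM on day 2, 108 to 349 on day 6 and 197 to 312 in vehicle. From day 2 to day 6 both lists had 0 genes called and none with a positive change, with medians of -0.75 and -0.78 log2. None of these markers was at 0, and their part was not tested.

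Single libraries set part of these counts. Against vehicle on day 6 the count was 28 without vehicle replicate 2 and 12 to 18 without any other library. Against day 2 it was 23 without day 2 replicate 2, 6 without day 6 replicate 2 and 1 without day 2 replicate 1. It was 0 without day 2 replicate 3 or day 6 replicate 1 or 3. Over all genes the calls were 2063 without day 2 replicate 2, 1060 without day 6 replicate 2 and 80 without day 2 replicate 1. They were 0 without day 2 replicate 3 or day 6 replicate 1 and 2 without day 6 replicate 3, against 134 with all libraries. The swing was thus not one of the replication genes alone. From day 6 to day 16 the count of replication genes was 7 without day 6 replicate 2 and 4 without day 16 replicate 3. It was 3 without day 6 replicate 1 and 2 without day 16 replicate 1. Without day 6 replicate 3 or day 16 replicate 2 it was 1. In the same order the calls over all genes were 1486, 830, 955, 450, 334 and 819, against 1364 with all libraries. The rises over vehicle of Mcm7, Gins1, Gins2, Gins4, Pcna, Rfc2, Rfc4, Rpa1, Rpa2, Tk1 and Ccne2 on day 6 held under all 13 alternatives, and those of Mcm3, Pold1, Fen1, Lig1, Tyms and Chaf1a were lost in at least 1.

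**Figure D2:**
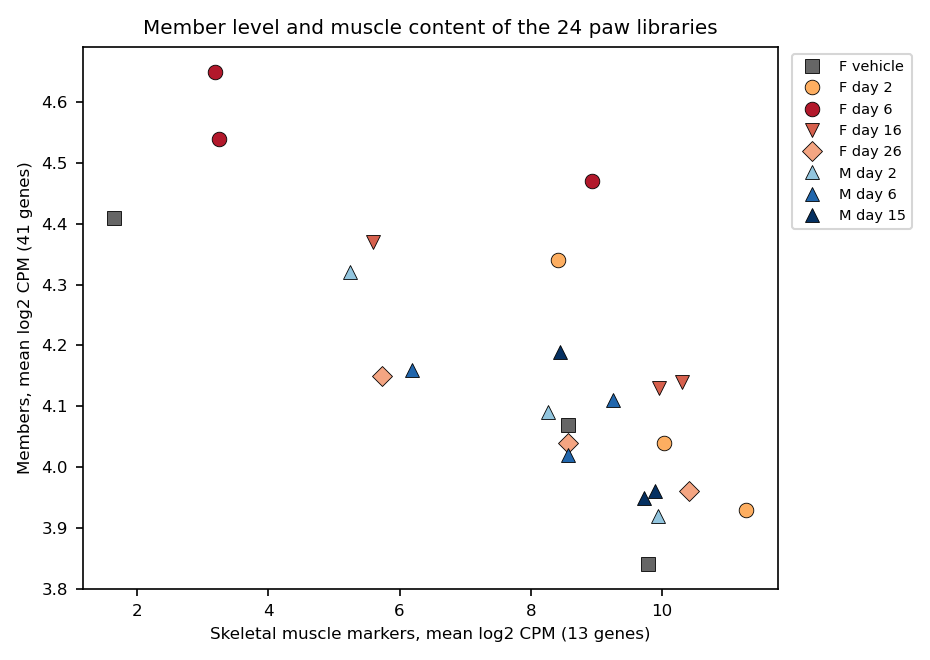
Mean log2 CPM of the 41 genes (vertical axis) against that of 13 skeletal muscle markers (horizontal axis) in the 24 paw libraries, with a symbol for each group. The 3 libraries of female day 6, at 4.47 to 4.65, lay above all others, with vehicle replicate 2, the one with least muscle, at 4.41.

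Genes of the helicase and of origins were led by the GINS complex, which joins the Mcm ring to the polymerases. Gins2 measured 3.95, 10 and 6.37 CPM in vehicle and 9.47, 11.2 and 10.7 on day 2. Gins2 then held 16, 13.3 and 14.5 on day 6, 9.88, 9.15 and 11.5 on day 16 and 8.95, 11.2 and 8.72 on day 26. All day 6 libraries lay above all others, and the gene rose by 1.11 ± 0.30 log2 over vehicle (SE, adjusted p = 0.00822). Gins1 was at 3.95, 5.63 and 4.07 CPM in vehicle and 4.94, 5.73 and 6.98 on day 2. Gins1 then held 9.19, 7.66 and 10.4 on day 6, a rise of 0.99 ± 0.22 over vehicle (adjusted p = 0.00208). The third GINS gene, Gins4, rose by 0.64 ± 0.11 (adjusted p = 0.000147) while its difference from day 2 to day 6 did not pass (0.19 ± 0.10, adjusted p = 0.228).

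Of the helicase ring itself, Mcm3 and Mcm7 rose over vehicle on day 6. Mcm3 measured 19.6, 33.1 and 27.3 CPM in vehicle and 27.6, 31.8 and 23.4 on day 2. Mcm3 then held 45, 38.9 and 35.3 on day 6 and 33.9, 30.3 and 34.3 on day 16. All 3 day 6 libraries lay above the other groups, with a rise over vehicle of 0.57 ± 0.18 log2 (adjusted p = 0.0224). Mcm7 ran from 18.4 to 23.9 CPM in vehicle and from 28.3 to 31.7 on day 6 (0.52 ± 0.14, adjusted p = 0.00679). The other 4 ring genes did not pass the test. Mcm2 was at 0.35 ± 0.19 (adjusted p = 0.19), Mcm5 at 0.44 ± 0.21 (0.128), Mcm6 at 0.23 ± 0.16 (0.317) and Mcm4 at -0.04 ± 0.14 (0.847). Mcm5 held 26.6, 50.3 and 38.4 CPM in vehicle and 59.5, 51.4 and 45.9 on day 6, and vehicle replicate 2 lay inside the day 6 range. Mcm10, which helps to switch the loaded helicase on, was at 6.44, 5.53 and 5.9 CPM on day 6, above the 2.69 to 4.53 of the other female days, and was lower than vehicle on day 26 (-0.70 ± 0.20, adjusted p = 0.0156), a call lost in 4 of 13 alternatives.

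Cdc6, an ATPase that loads the ring onto origins, had the largest log2 difference of the 41 from day 2 to day 6. Its libraries held 5.08, 5.16 and 4.12 CPM in vehicle and 3.38, 4.21 and 2.29 on day 2. Cdc6 then held 6.64, 5.78 and 6.02 on day 6, 4.44, 5.27 and 7.19 on day 16 and 3.54, 3.91 and 4.12 on day 26. Day 6 lay above day 2 in all libraries (0.90 ± 0.20 log2, adjusted p = 0.0462), and day 2 itself was at -0.54 ± 0.20 against vehicle (adjusted p = 0.0518). With the muscle level in the model the change from day 2 to day 6 was 0.68 (adjusted p = 0.422), where 0 of all 15346 genes were called. The fits with no low-count filter and with only the compared groups lost the Cdc6 call. So did leaving out day 2 replicate 1 or 3, or day 6 replicate 1 or 3. With the muscle level that made 7 of 13 alternatives, and the change of Cdc6 ranged from 0.68 to 1.12 log2 in all 13. Its partner Cdt1 was at 0.43 ± 0.19 against vehicle on day 6 (adjusted p = 0.0984) and at 0.35 ± 0.19 (adjusted p = 0.228) between those days, and held 16.5, 14 and 17.3 CPM on day 6 and 14.7, 15.2 and 18.2 on day 16, ranges that overlap.

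The promoters of these genes are shown because E2F factors are known to act at them, from 250 bases before the start of transcription to 50 after it (RefSeq, GRCm38.p6), in lower case with E2F letters in capitals. The letters searched were TTTCCCGC, TTTCGCGC, TTTGCCGC and TTTGGCGC on both strands. Of the 41 genes 33 had a promoter in the table and 12 of them (36.4%) held a match, against 3.29% of 15189 genes in the count files. Tk1, whose day 6 libraries stood above all 21 others, is shown beside them and held none of these letters in this window. The window of Cdc6, whose RefSeq start lies 350 bases inside the gene as GENCODE annotates it, is at chr11:98907901-98908200 on the plus strand, Mcm3 at chr1:20820263-20820562, Mcm6 at chr1:128359656-128359955, Pold1 at chr7:44548766-44549065 and Tk1 at chr11:117825965-117826264, all on the minus strand.
Cdc6: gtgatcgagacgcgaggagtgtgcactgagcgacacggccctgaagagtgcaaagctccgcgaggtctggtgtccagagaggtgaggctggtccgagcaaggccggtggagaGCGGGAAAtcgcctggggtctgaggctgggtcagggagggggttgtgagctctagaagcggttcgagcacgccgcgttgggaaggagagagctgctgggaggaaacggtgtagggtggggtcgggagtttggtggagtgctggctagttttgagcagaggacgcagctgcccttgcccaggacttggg
Mcm3: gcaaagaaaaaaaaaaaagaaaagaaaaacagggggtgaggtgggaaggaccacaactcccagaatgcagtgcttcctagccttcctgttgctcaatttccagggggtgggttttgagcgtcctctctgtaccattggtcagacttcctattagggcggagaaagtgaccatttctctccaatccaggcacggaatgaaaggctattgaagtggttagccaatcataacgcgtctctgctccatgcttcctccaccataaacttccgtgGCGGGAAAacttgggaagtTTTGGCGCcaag
Mcm6: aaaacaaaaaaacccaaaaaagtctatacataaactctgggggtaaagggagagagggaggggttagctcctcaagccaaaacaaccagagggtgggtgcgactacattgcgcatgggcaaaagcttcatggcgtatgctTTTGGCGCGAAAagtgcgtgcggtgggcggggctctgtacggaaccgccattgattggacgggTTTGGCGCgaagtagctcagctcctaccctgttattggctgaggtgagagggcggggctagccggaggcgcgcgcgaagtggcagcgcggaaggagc
Pold1: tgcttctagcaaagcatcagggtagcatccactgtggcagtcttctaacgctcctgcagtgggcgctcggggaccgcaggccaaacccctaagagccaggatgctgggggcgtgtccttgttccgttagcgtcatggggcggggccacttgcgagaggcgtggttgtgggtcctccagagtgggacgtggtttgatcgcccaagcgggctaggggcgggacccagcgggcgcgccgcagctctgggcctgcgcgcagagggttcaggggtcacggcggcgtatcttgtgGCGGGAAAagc
Tk1: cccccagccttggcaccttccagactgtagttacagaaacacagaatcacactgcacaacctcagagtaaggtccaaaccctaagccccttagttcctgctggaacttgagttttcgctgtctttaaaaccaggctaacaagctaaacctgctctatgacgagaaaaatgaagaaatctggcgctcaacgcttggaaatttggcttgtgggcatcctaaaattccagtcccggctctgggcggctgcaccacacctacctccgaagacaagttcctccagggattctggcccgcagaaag
The matches began at -138 from the start in Cdc6, at 19 and 38 bases past it in Mcm3, at -110, -106 and -47 in Mcm6 (the first 2 overlapping) and at 39 bases past it in Pold1. Of the 12 genes with a match 4 were higher than vehicle on day 6 (Mcm3, Mcm7, Pold1 and Lig1) and 8 did not pass (Cdc6, Cdt1, Mcm5, Mcm6, Rfc3, Pola1, Pole2 and Uhrf1). Of the 21 without one 8 were higher and 1 lower, and a match of letters is a description only. For Mcm7, Lig1 and Uhrf1, which have several windows, a match in any of them was counted.

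Of the clamp and its loader, Pcna, the ring that holds polymerases on DNA, measured 31.9, 52 and 37.6 CPM in vehicle and 44.8, 56.5 and 39.1 on day 2. Pcna then held 70.9, 57.7 and 59.6 on day 6 and 44.3, 38.3 and 58.1 on day 16. It rose by 0.63 ± 0.17 log2 over vehicle on day 6 (adjusted p = 0.00902), and the gene has 2 named pseudogenes that could share its reads. Rfc4, a small subunit of the loader, was at 7.73, 11.4 and 6.33 CPM in vehicle and 11.8, 16.6 and 16.1 on day 2. Rfc4 then held 21.7, 20 and 20.1 on day 6, 12.5, 15.1 and 13.1 on day 16 and 17.3, 16.2 and 16.7 on day 26. Every female day after paclitaxel lay above vehicle, with rises of 0.80 ± 0.19, 1.28 ± 0.20, 0.67 ± 0.19 and 0.98 ± 0.20 (adjusted p = 0.00456, 7.09e-05, 0.0178 and 0.00132), that of day 16 being lost in 4 of 13 alternatives and that of day 2 in 1. Rfc2 measured 12.7, 19.4 and 17.8 CPM in vehicle and 20.7, 22.9 and 22.4 on day 2. Rfc2 then held 28.9, 27.3 and 29.2 on day 6 and 20.6, 18.4 and 21.5 on day 16. It rose by 0.78 ± 0.12 over vehicle on day 6 (adjusted p = 6.88e-05) and fell by 0.50 ± 0.12 from day 6 to day 16 (adjusted p = 0.0171). Rfc3 and Rfc5 were at 0.32 ± 0.17 and 0.32 ± 0.16 against vehicle on day 6 (adjusted p = 0.183 and 0.145), and the large subunit Rfc1 at -0.02 ± 0.11 (0.926).

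The polymerase genes went in both directions. Pold1, the catalytic subunit of the polymerase that makes the lagging strand, measured 13, 23 and 13 CPM in vehicle and 18.4, 17.6 and 18.7 on day 2. Pold1 then held 27.3, 23.2 and 25.5 on day 6 (0.63 ± 0.17 log2 over vehicle, adjusted p = 0.00845). Pola2, the second subunit of polymerase alpha, was instead lower in all female groups after paclitaxel. It measured 18, 22.3 and 21.7 CPM in vehicle and 14.6, 13.5 and 14.9 on day 2. Pola2 then held 16.1, 14.3 and 14.3 on day 6, 12.9, 14.6 and 15 on day 16 and 10.5, 9.02 and 12.5 on day 26. It fell by 0.53 ± 0.12, 0.47 ± 0.12, 0.54 ± 0.12 and 0.95 ± 0.12 on days 2, 6, 16 and 26 (adjusted p = 0.00226, 0.00485, 0.00242 and 1.24e-05), and these 4 calls held under each of the 13 alternatives run. The 12 paw libraries of paclitaxel females held 9.02 to 16.1 CPM of Pola2. The 12 others, males after paclitaxel included, held 16.1 to 22.3 CPM. In DRG the ranges were 8.61 to 10.2 and 10 to 13.6 CPM. The fall of Pola2 cannot be told apart from the library set. Its partner Pola1 was at 0.48 ± 0.18 on day 6 (adjusted p = 0.0501) and the primase genes Prim1 and Prim2 at 0.50 ± 0.22 (0.0972) and 0.11 ± 0.17 (0.683). Pole, the leading strand polymerase, was lower on days 2 and 26 (-0.57 ± 0.18 and -0.76 ± 0.18, adjusted p = 0.0239 and 0.00557), and its partner Pole2 on days 2 and 16 (-0.60 ± 0.21 and -0.72 ± 0.21, adjusted p = 0.0361 and 0.0177). The day 2 calls were lost with the muscle level in the model, at -0.37 for Pole and -0.42 for Pole2 (adjusted p = 0.0651 and 0.115). In all 13 alternatives the day 2 call of Pole was lost in 4 and that of Pole2 in 5, and the day 16 call of Pole2 in 4. On day 6 both missed the test (-0.23 ± 0.18 and -0.38 ± 0.21, adjusted p = 0.379 and 0.189).

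All 4 genes of single strand binding and fragment joining rose over vehicle on day 6, Rpa1 and Rpa2 already on day 2. Lig1, the ligase that seals the lagging strand, measured 23, 35.2 and 26.8 CPM in vehicle and 28.9, 36.7 and 21.2 on day 2. Lig1 then held 48, 41.5 and 44.4 on day 6 and 26.3, 28.6 and 35.3 on day 16. The day 6 libraries were above all others, with a rise over vehicle of 0.66 ± 0.19 log2 (adjusted p = 0.0135). Rpa1, the large subunit of the complex that coats single strands, was at 57.8, 58.3 and 55.5 CPM in vehicle and 82.2, 79.5 and 104 on day 2. Rpa1 then held 81.8, 72.4 and 85.9 on day 6. Its rise over vehicle of 0.63 ± 0.11 on day 2 and 0.48 ± 0.11 on day 6 (adjusted p = 0.000222 and 0.00188) stood beside a difference between those days of -0.14 ± 0.11 (adjusted p = 0.367). Rpa2 was alike, with 0.56 ± 0.12 and 0.63 ± 0.12 (adjusted p = 0.00125 and 0.000398), and Fen1, which trims flaps, rose by 0.47 ± 0.15 on day 6 (adjusted p = 0.0198).

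The 5 genes of nucleotide supply had the largest role medians between female days, at 0.68 log2 from day 2 to day 6 and -0.76 from day 6 to day 16. Tk1, thymidine kinase of the salvage route, measured 12.6, 15.6 and 11.2 CPM in vehicle and 12.6, 15.6 and 14.3 on day 2. Tk1 then held 21.9, 20.7 and 27.7 on day 6, 13.1, 12.8 and 13.3 on day 16 and 15, 15.4 and 15.3 on day 26. The lowest day 6 library, 20.7 CPM, stood above the highest of all 21 other paw libraries, 15.6 CPM. Tk1 rose by 0.83 ± 0.13 log2 over vehicle and by 0.73 ± 0.13 over day 2, and fell by 0.84 ± 0.13 to day 16 (adjusted p = 9.87e-05, 0.0336 and 0.00304). With the muscle level in the model these were 0.78, 0.53 and -0.69 (adjusted p = 1.8e-05, 0.344 and 0.00521). In that model 0 of all 15346 genes were called for day 6 against day 2. The call against day 2 was also lost with only the compared groups, without day 2 replicate 3 and without day 6 replicate 1 or 3. With the muscle level that made 5 of 13 alternatives, over a range of 0.53 to 0.83 in all 13. The day 6 library rich in muscle, replicate 2, held 20.7 CPM of Tk1 and the vehicle library with least muscle 15.6 CPM. These are single libraries of different library sets, and the part of muscle in their difference was not tested.

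Tyms, thymidylate synthase, measured 9.84, 17.4 and 11.4 CPM in vehicle and 10, 16.3 and 12.2 on day 2. Tyms then held 19.8, 18.6 and 23.4 on day 6 and 11.2, 9.88 and 13.7 on day 16. It rose by 0.67 ± 0.21 log2 over vehicle on day 6 and fell by 0.83 ± 0.21 to day 16 (adjusted p = 0.0182 and 0.0208). Rrm2, the regulated subunit of ribonucleotide reductase, was at 18.5, 33.2 and 23.2 CPM in vehicle and 17.5, 25.6 and 14.9 on day 2. Rrm2 then held 38.9, 30.4 and 32.2 on day 6 and 18.3, 17.6 and 23.9 on day 16. One vehicle library overlapped the day 6 range (0.44 ± 0.21 over vehicle, adjusted p = 0.125), and Rrm2 passed only in its fall to day 16 (-0.76 ± 0.21, adjusted p = 0.0299), with 0.81 ± 0.21 from day 2 to day 6 (adjusted p = 0.0613). Dut, which removes dUTP, also fell to day 16 (-0.49 ± 0.13, adjusted p = 0.0314), and Rrm1 did not pass (-0.38 ± 0.13, adjusted p = 0.0763). Of the 5 genes that fell 4 were of nucleotide supply, and the other was Rfc2. These calls were lost in 1 of 13 alternatives for Tk1, 3 for Rfc2, 4 for Tyms, 5 for Rrm2 and 7 for Dut.

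**Figure D3:**
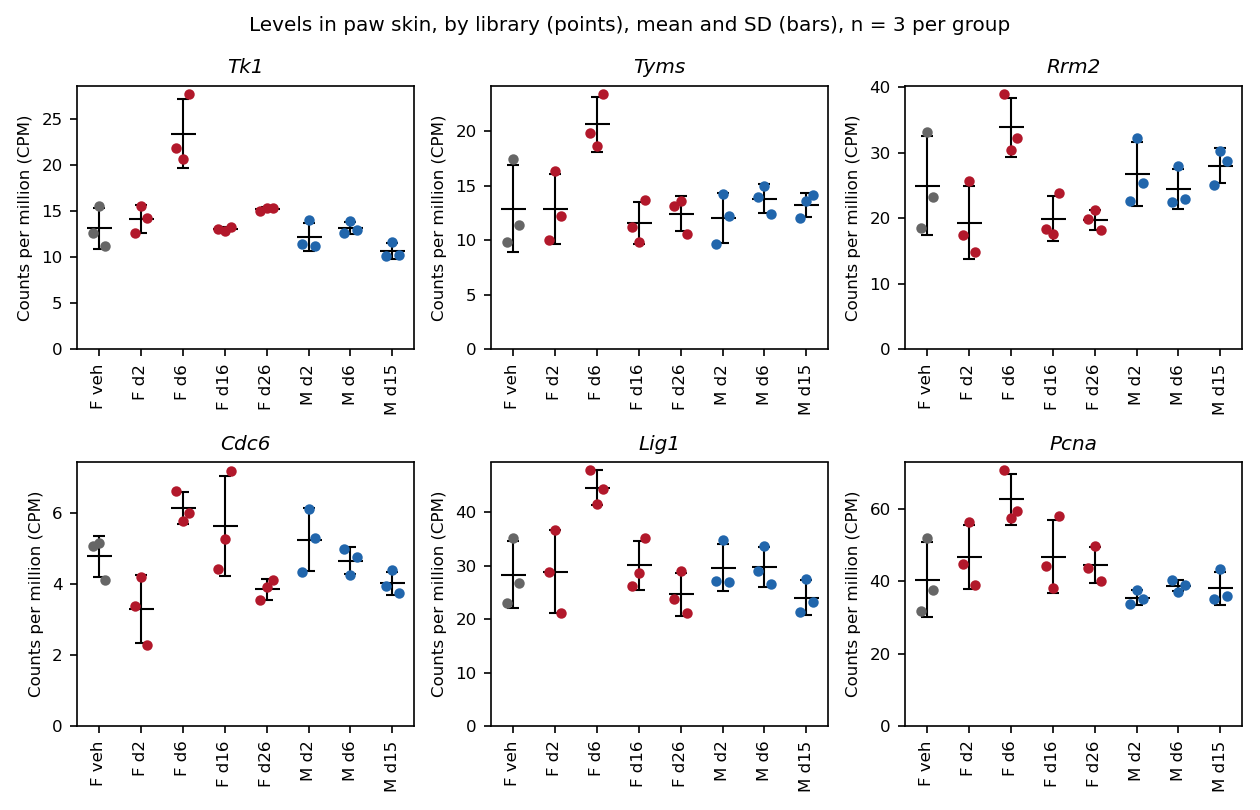
CPM of Tk1, Tyms, Rrm2, Cdc6, Lig1 and Pcna in each paw library (points), with the mean and SD of 3 libraries, by group (F, female; M, male; veh, vehicle; d, day). The 3 day 6 female libraries of Tk1, at 20.7 to 27.7 CPM, stand clear of the other groups, whereas those of Rrm2 and Pcna overlap with single libraries of other groups.

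Of the genes of chromatin copying, Chaf1a, of the factor that places new histones, rose by 0.56 ± 0.18 log2 over vehicle on day 6 (adjusted p = 0.0262), with 19.4, 28.5 and 23.7 CPM in vehicle and 38.8, 32.5 and 34.2 on day 6. Uhrf1, which brings DNA methylation to new strands, was lower than vehicle on day 2 (-0.61 ± 0.22, adjusted p = 0.0413) and day 26 (-0.74 ± 0.22, adjusted p = 0.0199), at 23.6, 37.8 and 29.1 CPM in vehicle, 17.7, 27.3 and 14.2 on day 2 and 18.9, 19.1 and 16 on day 26. The day 2 call was lost in 7 of 13 alternatives, over a range of -0.95 to -0.34, which was its value with the muscle level in the model (adjusted p = 0.109), and the day 26 call in 3. On day 6 Uhrf1 was at -0.07 ± 0.22 (adjusted p = 0.836). Slbp, which binds histone mRNA, was at 0.20 ± 0.17 (adjusted p = 0.389) and Chaf1b at 0.24 ± 0.21 (0.431).

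Among the genes that control entry into S phase, Ccne2, a cyclin partner of Cdk2, had its highest mean on day 16. It measured 6, 8.07 and 6.33 CPM in vehicle and 10.1, 14.4 and 8.66 on day 2. Ccne2 then held 15.2, 14.6 and 11.5 on day 6, 15.9, 12.5 and 22.8 on day 16 and 11, 11.6 and 11.8 on day 26. All 4 female days were above vehicle, by 0.70 ± 0.23, 1.02 ± 0.24, 1.33 ± 0.24 and 0.75 ± 0.24 log2 (adjusted p = 0.0318, 0.00292, 0.000478 and 0.0282), and the calls of days 2 and 26 were lost in 4 of 13 alternatives each. The related Ccne1 was at 0.57 ± 0.27 on day 6 (adjusted p = 0.122). E2f1, one of the factors that drive these genes, was at 8.55, 15.3 and 10.5 CPM in vehicle and 10.1, 12.2 and 8.76 on day 2. E2f1 then held 17.2, 14.6 and 15.3 on day 6 (0.45 ± 0.21 over vehicle, adjusted p = 0.11).

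**Figure D4:**
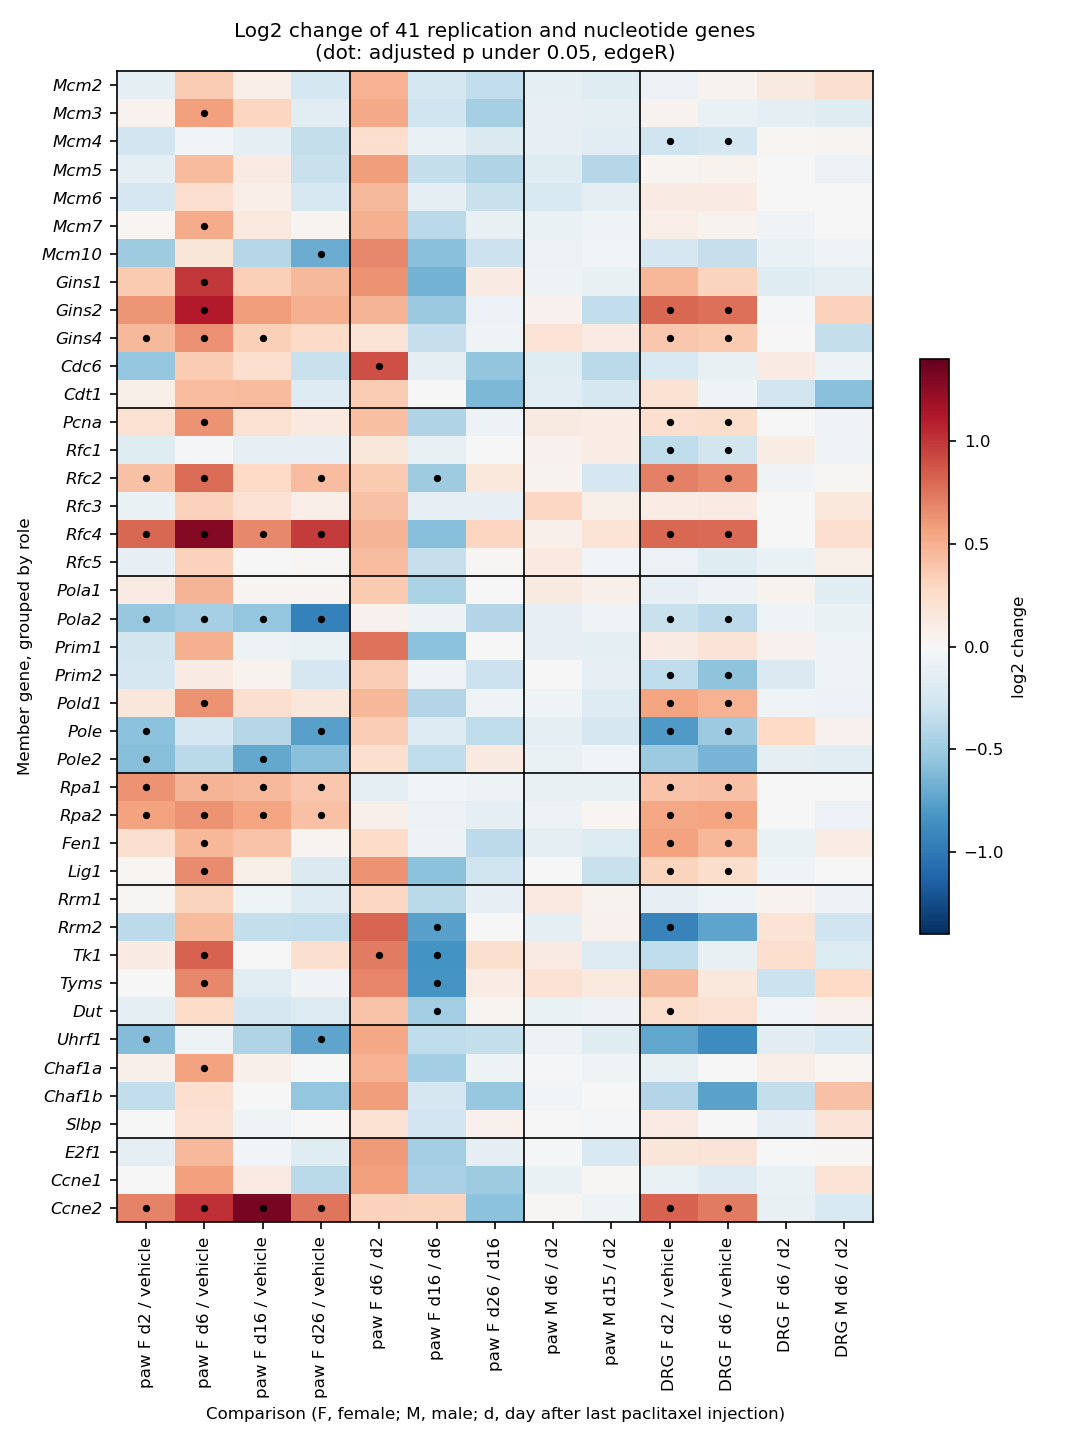
Log2 change of each of the 41 genes (rows, grouped by role) in 13 comparisons (columns; red higher, blue lower), with a dot where the adjusted p was under 0.05. The column of day 6 against vehicle holds 18 dots, that of day 6 against day 2 is red for 40 of 41 genes with 2 dots, and the male columns hold none.

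On the other female days fewer of the 41 genes were called against vehicle. There were 6 genes higher and 4 lower on day 2 (14.1% and 14.9% of all genes), 5 and 2 on day 16 (11.4% and 10.3%), and 5 and 4 on day 26 (11% and 9.41%). These splits moved with the muscle level and with single libraries. In the model with the muscle level 11 genes were higher and 1 lower on day 2 (14.7% and 12.6% of all genes), 14 and 2 on day 16 (14.9% and 11.8%), and 8 and 4 on day 26 (14.9% and 11.3%). On day 2, where muscle markers had their highest mean, there were 4 higher and 9 lower without day 2 replicate 2, and 8 higher and 1 lower without vehicle replicate 2. Of all genes 1617 were higher and 1669 lower in the latter fit, against 2164 and 2290 with all libraries. On day 16 there were 11 calls in all without vehicle replicate 2 and 4 without day 16 replicate 2, and on day 26 there were 5 without vehicle replicate 3 and 4 without day 26 replicate 3. Over all genes the calls were 2442 on day 16 without vehicle replicate 2, against 3331 with all libraries. On day 26 they were 2209 without vehicle replicate 3, against 3133. From day 16 to day 26 edgeR called 0 genes in either direction, as against 0.502% higher and 0.56% lower of all genes, with 7 lower at an unadjusted p under 0.05 (6.22% of all genes) and 1 called by DESeq2. A part of the differences from vehicle did not follow the day. Gins4, Rfc4, Rpa1, Rpa2 and Ccne2 were higher in all 12 paw libraries of paclitaxel females than in all 12 others, males after paclitaxel included. The same 5 genes were higher in all 6 DRG libraries of paclitaxel females than in the 9 others, as were 5.81% of 14346 genes in both tissues, while 0 of the 41 and 2.63% of all genes were lower in both. Rpa1, for one, measured 67.2 to 104 CPM in paw of paclitaxel females, against 49.8 to 62.6 CPM in the other paw libraries. As for the other genes, their rise over vehicle cannot be told apart from the library set.

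Of the 41 genes 8 share at least 50 exon bases with another counted gene, namely Mcm7 (Cops6, Ap4m1 and 2 miRNA genes), Gins2 (Gse1), Rfc2 (Lat2), Rfc4 (Eif4a2), Rfc5 (Wsb2), Tk1 (Afmid), Chaf1a (Ubxn6) and Ccne2 (Ints8). The kit keeps the strand but the strand setting of counting is not given in the sources used here, so reads of these genes and of their partners may not have been told apart. Of the 8, 2 were among the 5 genes that separated the library sets, against 3 of the other 33. All of the 8 except Rfc5 were higher than vehicle on female paw day 6. Of the other 33, Mcm3, Gins1, Gins4, Pcna, Pold1, Rpa1, Rpa2, Fen1, Lig1 and Tyms were. Mcm7, Gins2, Rfc2, Rfc4 and Tk1 also had day 6 libraries above all 21 other paw libraries, as did Mcm3, Pold1, Lig1 and Tyms. Whether shared exon bases had a part in this was not tested. Tyms has 1 named pseudogene.

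In male paw skin the medians stayed near 0. From day 2 to day 6 the median change was -0.07 and edgeR called 0 of the 41 genes and 0% of all genes in either direction. From day 2 to day 15 the median was also -0.07, and again 0 of the 41 and 0% of all genes were called. At an unadjusted p under 0.05 edgeR found 0 in both comparisons, and DESeq2 called 0. Tk1 was at 11.4, 14 and 11.2 CPM on day 2, 12.6, 13.9 and 13 on day 6 and 10.1, 11.7 and 10.2 on day 15, all below the female day 6 libraries. Among 13 genes followed in every comparison, of which Tk1, Tyms, Rrm2, Mcm5 and Pcna are members, the differences from day 2 to day 6 ran from -0.17 ± 0.21 (Mcm5) to 0.20 ± 0.21 (Tyms), both with an adjusted p of 1. Cdc6 was at 4.34, 6.13 and 5.29 CPM on day 2 and 4.98, 4.26 and 4.76 on day 6, and Rrm2 at 22.6, 32.2 and 25.4 and 22.5, 27.9 and 22.9. Against vehicle females, a comparison of sexes as well as of treatment, edgeR called 0 of the 41 genes on male days 2, 6 and 15, where 3.6%, 3.84% and 2.11% of all genes were higher and 2.35%, 2.13% and 2.29% lower. At an unadjusted p under 0.05 there were 1, 0 and 2 on those days, all lower in males. Of all 15346 genes 1635, 1500 and 1755 were lower at that p. DESeq2 called 1 (lower), 0 and 0 of the 41, and 671, 603 and 559 of all genes lower.

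The change from day 2 to day 6 was compared between the sexes by an interaction term, which involves no vehicle library. Its females all lie in 1 library set and its males in the other, and only titles of males carry LC. Sex therefore cannot be told apart from library set or LC here. The term had a median of 0.48 over the 41 genes, against 0.02 over all genes, being more positive in females for 39 and more negative for 1. The test called 0 of the 41 and 0% of all genes in either direction, with 15 genes at an unadjusted p under 0.05, all higher in females (4.73% of all genes were), and DESeq2 called 0 of the 41. The largest were Cdc6 (1.07 ± 0.28 log2, adjusted p = 0.445), Rrm2 (0.94 ± 0.29, adjusted p = 0.451) and Prim1 (0.88 ± 0.31, adjusted p = 0.454), so a difference between the sexes was not shown. With the muscle level in the model its median was 0.16.

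In DRG, whose libraries were scaled apart from those of paw, the mean over the 41 genes was 2.68 log2 CPM in vehicle, 2.73 and 2.70 on female days 2 and 6 and 2.60 and 2.58 on male days 2 and 6. Per kilobase of transcript, Rpa1 at 19.4 and Rfc1 at 15.3 CPM per kb were the highest in vehicle DRG, and Mcm10 at 0.321 the lowest, while in vehicle paw Pcna at 26.7 and Mcm6 at 22.7 led. Against vehicle, 12 genes were higher and 6 lower on female day 2 (25.8% and 24% of 15577 genes) and 11 and 5 on day 6 (23.2% and 18.3%), with medians of 0.09 and 0.05 against 0 over all genes. The share of the 41 genes called higher was near that of all genes, and the share called lower was below it. Rfc2 was at 20.5, 20 and 18.1 CPM in vehicle and 31.5, 30.1 and 34 on day 2. Rfc2 then held 28.2, 30.3 and 33.9 on day 6, with males at 19.6 to 25 CPM. It rose by 0.71 ± 0.10 log2 on day 2 (adjusted p = 4.57e-05), beside Rpa1 (0.40 ± 0.05, adjusted p = 3.66e-05), Fen1 (0.56 ± 0.09, adjusted p = 0.000187), Pold1 (0.55 ± 0.11, adjusted p = 0.000822) and Ccne2 (0.83 ± 0.18, adjusted p = 0.00161).

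Lower in female DRG after paclitaxel was Pole, which measured 5.34, 6.65 and 5.93 CPM in vehicle and 3.26, 3.35 and 3.78 on day 2. Pole then held 4.64, 4.94 and 3.05 on day 6 (-0.79 ± 0.16 and -0.51 ± 0.16 log2, adjusted p = 0.00115 and 0.0207), with the day 6 call lost in 3 of 12 alternatives. Rfc1, Mcm4, Pola2 and Prim2 were lower on both days, with Rfc1 at -0.36 ± 0.08 on day 2 (adjusted p = 0.00165) and Prim2 at -0.56 ± 0.14 on day 6 (adjusted p = 0.00451). On day 2 the call of Prim2 was lost in 8 of 12 alternatives, among them DESeq2 and the muscle level (-0.36, adjusted p = 0.059), and that of Pola2 in 5. Rrm2 fell on day 2 (-0.93 ± 0.33, adjusted p = 0.0279), from 2.96, 2.82 and 3.34 to 1.8, 2.03 and 0.892 CPM. Beside the muscle level Rrm2 was at -0.85 (adjusted p = 0.051), and its call was lost in 4 of 12 alternatives. Tk1, which peaked in paw, held 1.79, 1.52 and 2.31 CPM in vehicle and 1.81, 1.98 and 1.46 on day 6 (-0.10 ± 0.26, adjusted p = 0.783). Between days 2 and 6 edgeR called 0 of the 41 in females (0.0706% of all genes higher and 0.109% lower), with 0 at an unadjusted p under 0.05 and 0 by DESeq2. In males it called 0 as well (0% of all genes in either direction), and DESeq2 called 0. At an unadjusted p under 0.05 there were 3 in males, namely Gins4 (-0.33 ± 0.09 log2), Cdt1 (-0.59 ± 0.23) and Mcm2 (0.22 ± 0.10). The share of all genes at that p is not given here, so these 3 are not read as a result. The 13 muscle markers summed to 274 to 644 CPM in vehicle DRG, 659 to 11200 on female day 2, where 3 of them rose, and 319 to 5790 on day 6, with none at 0. All paclitaxel female DRG libraries also held more RNA of differentiated keratinocytes, whose 9 markers summed to 29.5 to 31.2 CPM in vehicle, 206 to 269 on day 2 and 186 to 275 on day 6, with at most 1 of them at 0 in a library. The 7 markers tested all rose on both days, and their part in the DRG differences was not tested.

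**Figure D5:**
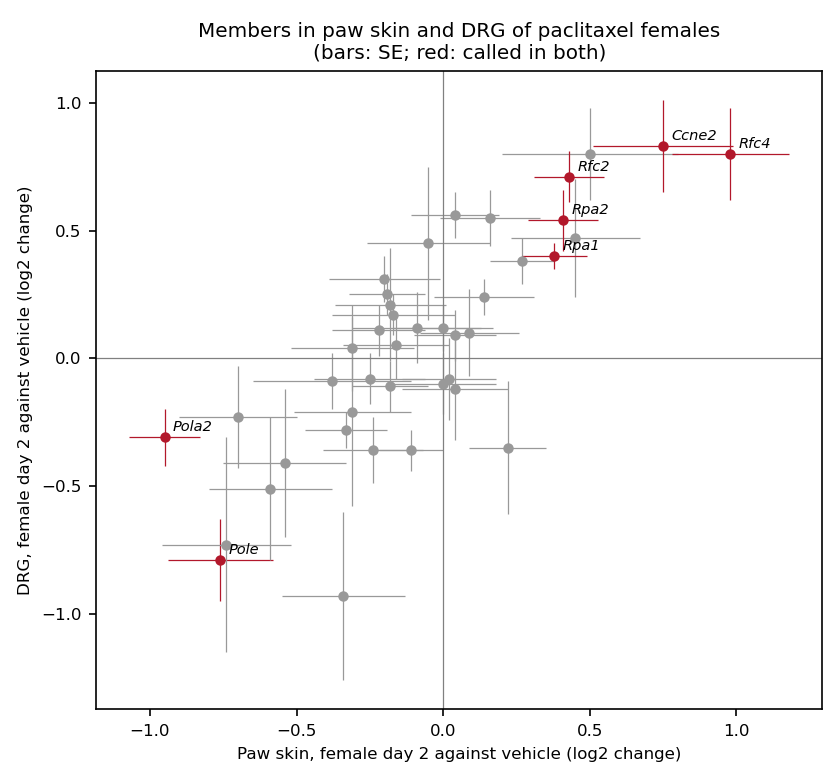
Log2 change of the 41 genes against vehicle, on female day 26 in paw skin (horizontal, where the printed label reads day 2) and on female day 2 in DRG (vertical). Bars are SE, and genes called in both comparisons are in red. The vehicle libraries of the axes are different samples. Rfc4, Ccne2, Rpa1, Rpa2 and Rfc2 lie at the upper right while Pole and Pola2 lie at the lower left.

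Other genes of the same processes were described in the same way. Of 30 other genes of the fork and origins, 8 rose and 3 fell against vehicle on day 6 (16% and 13.5% of all genes), with a median of 0.13. Gmnn, the inhibitor of Cdt1, rose by 1.37 ± 0.25 log2 (adjusted p = 0.000354), Rpa3 by 1.27 ± 0.17 (1.93e-05), Pole4 by 0.71 ± 0.10 (2.64e-05) and Rnaseh2a by 0.69 ± 0.12 (0.000348), while Orc3, of the origin recognition complex, fell by 0.96 ± 0.09 (2.27e-07). From day 2 to day 6 the median was 0.43, with Chtf18 (0.91 ± 0.18, adjusted p = 0.0351) and Asf1b (0.73 ± 0.17, adjusted p = 0.0487) called, where 0.411% of all genes were called higher. From day 6 to day 16 7 of the 30 fell (4.8% of all genes), with Chtf18 at -1.03 ± 0.18 and the helicase cofactor Cdc45 at -0.73 ± 0.14 (adjusted p = 0.00506 and 0.00567).

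Of 29 other genes of nucleotide synthesis, 6 rose and 0 fell against vehicle on day 6, near the 16% of all genes that rose and below the 13.5% that fell, with a median of 0.21. Among the 6 were Nme2 (2.20 ± 0.13 log2, adjusted p = 6.15e-10) and Dtymk, which follows Tk1 and Tyms in making dTTP (1.03 ± 0.14, adjusted p = 1.42e-05). Guk1 and Nme1, kinases of nucleotides, rose by 0.62 ± 0.12 and 0.63 ± 0.16 (adjusted p = 0.000529 and 0.00685). Nme2 was as far from vehicle in female DRG on day 2 (2.12 ± 0.08, adjusted p = 2.41e-10). The median from day 2 to day 6 was 0.12 for this list, with Guk1 alone called (0.56 ± 0.12, adjusted p = 0.0351), where 0.411% of all genes were called higher. Of 25 other genes of S phase entry 1 rose (Ccnd3, 0.69 ± 0.09, adjusted p = 1.1e-05) and 4 fell on day 6, where 16% and 13.5% of all genes did. Among those that fell were E2f4 at -0.71 ± 0.11 (adjusted p = 4.89e-05), Rb1 at -0.43 ± 0.11 (0.00569) and Tfdp1 at -0.35 ± 0.12 (0.029), and the median of the list was -0.01. Ccnd1 and Cdkn1a were at 0.10 ± 0.19 (adjusted p = 0.732) and 0.24 ± 0.16 (adjusted p = 0.275).

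Mitosis genes, which act after replication in the cell cycle, had lower medians against vehicle, a difference between lists that was not tested. Of 30 such genes 9 fell on day 2, 3 rose and 3 fell on day 6, 19 fell on day 16 and 10 fell on day 26, while 0 rose on days 2, 16 and 26. Of all genes 14.9%, 13.5%, 10.3% and 9.41% fell on those 4 days and 16% rose on day 6, so the day 6 counts of mitosis genes were below those shares. Their medians were -0.39, 0.23, -0.65 and -0.45 log2, where those of the 41 replication genes were 0, 0.45, 0.08 and -0.11. Mki67, a marker of dividing cells, held 272, 438 and 358 CPM in vehicle and 188, 74.6 and 63 on day 2. Mki67 then held 173, 136 and 148 on day 6 (-1.71 ± 0.29 and -1.23 ± 0.29, adjusted p = 0.000247 and 0.00332). Cenpf was likewise lower on day 6 (-1.10 ± 0.31, adjusted p = 0.0106), while Cenpa and Aurkb were higher (0.75 ± 0.17 and 0.73 ± 0.18, adjusted p = 0.00213 and 0.0049) and Top2a did not pass (0.36 ± 0.21, adjusted p = 0.207). Between female days the mitosis genes had medians of 0.57 from day 2 to day 6 (2 rose, against 0.411% of all genes) and -0.83 from day 6 to day 16 (22 fell, against 4.8%), among them Ube2c (0.90 ± 0.18, adjusted p = 0.0351, then -1.14 ± 0.18, adjusted p = 0.00304). The day 6 libraries were above the 9 other paclitaxel female libraries for 20 of 30 mitosis genes, 9 of 30 other fork and origin genes and 4 of 29 other nucleotide genes. The share of all genes was 3.94%. Hair matrix and shaft markers summed to 154 to 262 CPM in vehicle, 20.4 to 122 on day 2, 25.2 to 169 on day 6 and 245 to 2420 on day 16. Up to 5 of 15 were at 0 on days 2 and 6, and their part in these results was not tested. In DRG 8 of 29 mitosis genes fell on female day 2 and 11 on day 6, where 24% and 18.3% of all genes fell.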

How the data were processed

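RNA of 24 paw and 15 DRG libraries had been sequenced as single reads from stranded mRNA libraries, per the labels. The authors deposited unnormalized read counts for each gene, and the submitters' processing notes name bcl2fastq, TopHat2, HTSeq and mm9, with versions, annotation and strand setting not given in the sources used here. Rows that name no gene (no feature, 13.91% to 21.55% of uniquely aligned reads, and ambiguous) were left out. Each tissue was fitted apart with all its groups in edgeR 4.0.16 (R 4.3.3), with TMM scaling, filterByExpr and the quasi-likelihood F test. A gene was called at a Benjamini-Hochberg adjusted p under 0.05 over all genes tested (15346 in paw, 15577 in DRG). Errors of log2 changes are standard errors. Counts of libraries of a pair differed by more than sampling noise, so none was taken as a duplicate. Day 6 against day 2 of females was set against that of males by an interaction term. The 41 genes and all lists were chosen with earlier results of these data known. Named were up to 10 called genes of the 41 with the smallest p in each comparison and 13 followed throughout, up to 4 called genes of each other list, and Mki67, Top2a, Cdkn1a and Ccnd1. Gmnn and genes whose course is described beyond that were chosen after their values were seen, and values that the rule gives but no result turns on are not printed. Alternatives were DESeq2 1.42.0, no filter, relative-log-expression size factors, only the compared groups, a replicate block, a muscle covariate and leaving out each library. A basal keratinocyte covariate was added after seeing the data. The scripts were tested on simulated data. Samples of the same replicate number had all 3 correlations of deviations over 0.1 on female paw day 2 and male days 6 and 15 against vehicle. The same held on male DRG day 6 against day 2, and the lowest correlations in these were 0.16, 0.25, 0.19 and 0.12. Whether such samples share a mouse or a batch was not tested, and males and vehicle females cannot share a mouse.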

Additional observations from a re-analysis of the deposited data

How the results depend on the processing

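The calls for single genes were 85 over all comparisons. Of these 83 were kept by DESeq2, 81 with no filter, 85 with the replicate block, 84 under the size factors of relative log expression, 77 with the muscle level in the model and 55 where only the compared groups entered the fit, and 51 of 51 in paw with the basal keratinocyte level. Leaving out 1 library kept 402 of 510. No direction reversed. Counts of the 41 genes that moved by over 1.5 times were as follows, each with the count over all genes in brackets. The main fit called 4454 of all genes on female paw day 2 and 3331 on day 16 against vehicle. It called 134 for day 6 against day 2, 1364 for day 16 against day 6 and 163 for day 26 against day 16. For males it called 913 on day 2 and 916 on day 6 against vehicle. With only the compared groups, a fit with fewer samples, they were 2 (2019) on female paw day 2 and 4 (2372) on day 16 against vehicle. They were 0 (0) for day 6 against day 2 and 0 (0) for day 16 against day 6. With DESeq2 they were 12 (1464) for day 6 against day 2 and 12 (2004) for day 16 against day 6. For day 26 against day 16 DESeq2 called 1 (409), and for male day 2 against vehicle 1 (1534). With the muscle level they were 16 (4102) on day 16 against vehicle, 0 (0) for day 6 against day 2, 1 (332) for day 26 against day 16 and 1 (1313) for male day 2 against vehicle. With the basal keratinocyte level they were 12 (4192), 6 (418), 1 (519) and 1 (2320) for the same comparisons and 4 (2852) for male day 6 against vehicle. With no filter 1 gene (47) was called for day 6 against day 2. The replicate block gave 7 (566) for day 6 against day 2 and 10 (1605) for day 16 against day 6. In these comparisons the samples share only a number. The block changed no call where the numbers pair. The cause of these moves was not tested. Leaving out 1 library gave 7 to 13, 12 to 28, 4 to 11 and 4 to 9 calls on female paw days 2, 6, 16 and 26 against vehicle, 0 to 23 for day 6 against day 2, 1 to 7 for day 16 against day 6, 0 to 1 for male day 2 against vehicle, and 15 to 17 and 14 to 17 on female DRG days 2 and 6. Over all genes, day 6 against vehicle gave 3506, 4308 and 3445 calls without vehicle replicates 1, 2 and 3, and 4527 with all libraries. Day 6 against day 2 gave 0 to 2063 calls over all genes on leaving out 1 library. Day 16 against day 6 gave 334 to 1486. The low DRG levels of genes such as Cdc6 and Tyms limit what could be detected there.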

Other observations

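In male paw skin, where the 41 replication genes had a median of -0.07 log2 from day 2 to day 6, the 30 mitosis genes had a median of 0.35 with 30 of 30 positive, and of 0.34 from day 2 to day 15 with 30 of 30 positive. edgeR called 0 of them in either comparison. The CCAAT letters stood in 80.8% of the 26 mitosis promoters with an entry, 54.5% of the 33 replication promoters and 42.6% of all, and the E2F letters in 3.85%, 36.4% and 3.29% of them. This is a description of letters in a window and was not tested.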
